A study of Mus musculus with 3 samples.

Results

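The cells described here were mural cells of the mouse patellar tendon that carried transcripts of several of the genes Casq2, Pln, Rergl, Nrip2 and Nrgn. The members were chosen by measured values, namely the detection of these genes: a barcode was taken when it had at least 500 genes, at least 1000 unique molecular identifiers (UMIs, each marking 1 captured transcript) and at most 10% mitochondrial UMIs, and when at least 3 of these 5 genes were detected with at least 1 UMI. There were 120 members among 6588 barcodes past the filters. They were set against 555 comparison smooth muscle barcodes (15 in 20-week replicate 1 and 540 in the 2-week library), which failed this gate but had at least 3 of Myh11, Cnn1, Actg2, P2rx1 and Timp4.

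The tendons came from wild-type mice, were digested with type I collagenase and were depleted of blood-lineage cells and endothelium by flow sorting. The 20-week-old mice gave 2 libraries, called replicate 1 and replicate 2, and the 2-week-old mice gave 1 library, all made with the Chromium 3' v3.1 chemistry. How many animals went into a library is not given in the labels. The median depth of barcodes past the filters was 2848 UMIs in 20-week replicate 1, 5132 in 20-week replicate 2 and 6570 in the 2-week library. The libraries shared 2 barcode sequences between 20-week replicate 1 and the 2-week library, 3 between 20-week replicate 2 and the 2-week library, and 0 between the 20-week replicates.

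Mural cells surround the endothelium of blood vessels. Smooth muscle cells wrap arteries, arterioles and veins and set vessel width by contracting, whereas pericytes lie along capillaries and contract less. In smooth muscle, calcium enters through channels of the plasma membrane or leaves the sarcoplasmic reticulum, and pumps then return it to the store or out of the cell. Casq2 encodes the cardiac calsequestrin, which binds calcium within the store, and Pln encodes phospholamban, which restrains the pump that refills it. Nrgn encodes the calmodulin-binding protein neurogranin, Nrip2 a protein that interacts with nuclear receptors, and Rergl a protein related to the Ras family of small GTPases.

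The genes of the gate lie on several chromosomes in the GENCODE annotation of GRCm38. Casq2 spans chromosome 3 from 102086415 to 102146514 on the plus strand, Pln spans chromosome 10 from 53337667 to 53345987 on the plus strand, and Rergl spans chromosome 6 from 139492973 to 139501976 on the minus strand. Nrip2 lies on the plus strand of chromosome 6 from 128399296 to 128416427, and Nrgn on the minus strand of chromosome 9 from 37544492 to 37552904. Pln lies opposite to Cep85l and Nrip2 overlaps Itfg2 on the other strand. The strand setting of the authors' counting was not given, so reads of these pairs were told apart only as far as that counting did so. RefSeq promoter entries (GRCm38.p6) were matched for 4 of the 5 gate genes, Nrip2 having none in the table used. In the 250 bases before the start, Casq2 and Rergl held a match to the consensus of MEF2, the family of transcription factors that includes Mef2c, and Rergl and Hopx held a CArG box (CC, then 6 bases of A or T, then GG), the element bound by serum response factor. Hopx is not a gate gene and was picked singly. Promoter matches of the other listed transcription factors past 2-fold higher in members, Mef2c, Tbx2 and Tbx3, are not given. A link between the level of Mef2c and these matches was not tested. The sequences are shown because Mef2c and Hopx transcripts were also at a higher level in the members, as described below. They are given 5′ to 3′ on the strand of the gene, with matches in capitals, at chr3:102086165-102086414 for Casq2, chr6:139501977-139502159 for Rergl and chr5:77115124-77115373 for Hopx.
Casq2: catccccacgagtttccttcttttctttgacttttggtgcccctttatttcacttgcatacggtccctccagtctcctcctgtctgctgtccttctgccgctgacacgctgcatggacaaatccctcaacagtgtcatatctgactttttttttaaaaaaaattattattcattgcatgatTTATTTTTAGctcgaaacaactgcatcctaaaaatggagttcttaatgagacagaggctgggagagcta
Rergl: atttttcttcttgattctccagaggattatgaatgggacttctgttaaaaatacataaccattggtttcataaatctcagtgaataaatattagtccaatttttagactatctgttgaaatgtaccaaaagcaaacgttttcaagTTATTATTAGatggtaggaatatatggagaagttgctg
Hopx: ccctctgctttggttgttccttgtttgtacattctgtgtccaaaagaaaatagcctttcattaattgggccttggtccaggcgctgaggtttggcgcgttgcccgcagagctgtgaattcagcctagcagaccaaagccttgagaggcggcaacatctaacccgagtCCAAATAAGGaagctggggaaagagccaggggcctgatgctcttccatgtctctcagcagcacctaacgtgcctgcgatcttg
The Casq2 match began 69 bases and the Rergl match 105 bases before the RefSeq start. The CArG box of Rergl, CCATAAAAGG, began 49 bases before that start, within 67 bases that GENCODE counts as part of the gene and that are not shown, and that of Hopx began 83 bases before it. Both strands were searched. Of 32851 RefSeq promoters, 2.92% held a MEF2 match and 1.47% a CArG box in the same window. Among the 15 genes with the highest ratio of members over comparison barcodes named below, 8 had a promoter entry, of which 0 held a MEF2 match and 1, Asb2, held a CArG box. Among the 15 with the lowest ratio, 9 had an entry, and 1 MEF2 match (Col13a1) and 1 CArG box (Fhl1) were found. A match is a match of letters, and no binding was measured.

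Nearly all members came from 1 library. At 20 weeks, 1 of 609 barcodes of replicate 1 (0.164%, exact 95% binomial interval 0.00416 to 0.911%) and 0 of 1015 barcodes of replicate 2 (which allows a share of up to 0.296%) were members, and at 2 weeks 119 of 4964 barcodes were (2.40%, interval 1.99 to 2.86%). These intervals and limits cover counting error only. Of the barcodes passing either smooth muscle gate, members made up 1 of 16 in 20-week replicate 1 (6.25%, interval 0.158 to 30.2%) and 119 of 659 in the 2-week library (18.1%, interval 15.2 to 21.2%), and no barcode of 20-week replicate 2 passed either gate. The 20-week interval therefore covered the 2-week share once only smooth muscle barcodes were counted.

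The share of members moved with the depth per barcode. After each barcode was thinned to 2000 UMIs, a depth chosen after the data were seen, members were 1 of 467 barcodes in 20-week replicate 1 (0.214%, interval 0.00542 to 1.19%), 0 of 893 in 20-week replicate 2 (up to 0.336%) and 44 of 4728 in the 2-week library (0.931%, interval 0.677 to 1.25%). At 3000 UMIs they were 0 of 283 in 20-week replicate 1 (up to 1.06%, exact upper bound 1.295%), 0 of 760 in 20-week replicate 2 (up to 0.395%) and 61 of 4333 in the 2-week library (1.41%, interval 1.08 to 1.80%). The 2-week share was thus lower after thinning than as deposited, and its interval overlapped the exact interval of 20-week replicate 1 at both depths. It did not overlap that of 20-week replicate 2, whose exact upper bounds were 0.412% at 2000 UMIs and 0.484% at 3000 UMIs. Over barcodes with at least 5 of 10 pan-mural markers, counted before thinning, the intervals of all libraries overlapped at 2000 UMIs. Members were then 1 of 23 in 20-week replicate 1 (4.35%, interval 0.110 to 21.9%), 0 of 20 in 20-week replicate 2 (up to 15%, exact upper bound 16.8%) and 44 of 949 in the 2-week library (4.64%, interval 3.39 to 6.17%). As deposited, members were 1 of 50 pan-mural barcodes in 20-week replicate 1 (2.00%, interval 0.0506 to 10.6%) and 0 of 36 in 20-week replicate 2 (exact upper bound 9.74%). In the 2-week library they were 119 of 976 (12.2%, interval 10.2 to 14.4%), an interval that did not overlap that of 20-week replicate 2. With 1 member at 20 weeks, no test of age within these cells could be made, and the values below are from the 2-week library unless another is named.

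Of the 119 members of the 2-week library, 74 had 3 of the gate genes, 36 had 4 and 9 had all 5. Just outside the gate, 112 barcodes had 2 of the genes and 496 had 1. Nrip2 was found in 117 members, Nrgn in 89, Rergl in 75, Casq2 in 70 and Pln in 60. The most frequent combinations were Nrgn with Nrip2 and Casq2 in 21 members and Nrgn with Nrip2 and Rergl in 20. These numbers follow from the gate and describe it. So do the shares of the gate genes' UMIs that fell in each set of the 2-week library, since members were picked by these genes and the other sets had to fail that gate. A further set, 130 pericyte-type barcodes, was chosen after the data were seen by having at least 6 of 12 pericyte markers and failing both gates. Rergl had 158 of its 176 UMIs in members, 10 in comparison barcodes and 0 in pericyte-type barcodes. Pln had 208 of 287 UMIs in members, 61 in comparison barcodes and 0 in pericyte-type barcodes. Casq2 had 156 of 258 UMIs in members, 16 in comparison barcodes and 43 in pericyte-type barcodes, and Nrip2 had 649 of 2202 UMIs in members and 1185 in comparison barcodes. Nothing about how restricted the genes are is read from these values.

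**Figure D1:**
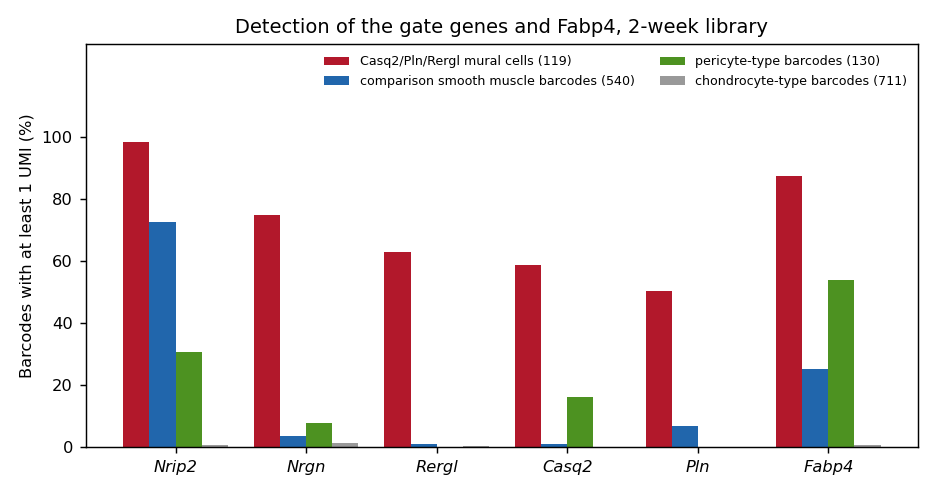
Share of barcodes of the 2-week library with at least 1 UMI of each gate gene and of Fabp4, in Casq2/Pln/Rergl mural cells, comparison smooth muscle barcodes, pericyte-type barcodes and chondrocyte-type barcodes, the last shown as cells of another type. Nrip2, Nrgn, Rergl, Casq2 and Pln chose the members, and Fabp4, found in 87.4% of members and 25.0% of comparison barcodes, did not.

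The working label calls these cells arterial-type. Of the 6 markers given for that name, all but Fabp4 are the gate's own genes. Fabp4 was also detected in 53.8% of pericyte-type barcodes, and general mural markers are shared by mural cells. Neither can therefore tell an arterial origin from another. Members carried the pan-mural genes, with Acta2 (smooth muscle alpha-actin) and Tagln (transgelin) detected in all 119 members. Nr2f2, a transcription factor associated with venous identity in endothelium, stood at 190 counts per 1000000 UMIs (CPM) in members and 188 CPM in comparison barcodes. Whether the cells came from arteries was not tested, and they are called Casq2/Pln/Rergl mural cells here after genes of the gate, although 15 of the 119 members had all of Casq2, Pln and Rergl.

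Fabp4, a fatty acid carrier best known from adipocytes, macrophages and capillary endothelium, showed the highest ratio among the genes that could be named outside the gates. It reached 2302 CPM in members, against 92.8 CPM in comparison barcodes, a ratio of 24.8 (exact 95% counting interval 22.3 to 27.6). Per barcode, its lowest, median and highest levels were 0, 13.3 and 138 UMIs per 10000 in members and 0, 0 and 101 in comparison barcodes. The 2 sets overlapped, since 15 of 119 members had no Fabp4 UMI and 25.0% of comparison barcodes had at least 1. After thinning to 3000 UMIs, 76.3% of members and 14.3% of comparison barcodes had a Fabp4 UMI. In 711 chondrocyte-type barcodes, at a median of 7675 UMIs, 0.563% had one, whereas the members' median was 7023 UMIs and that of comparison barcodes 8043.5. Pericyte-type barcodes also carried Fabp4, at 1702 CPM and in 53.8% of barcodes, so the gene was not particular to the members.

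**Figure D2:**
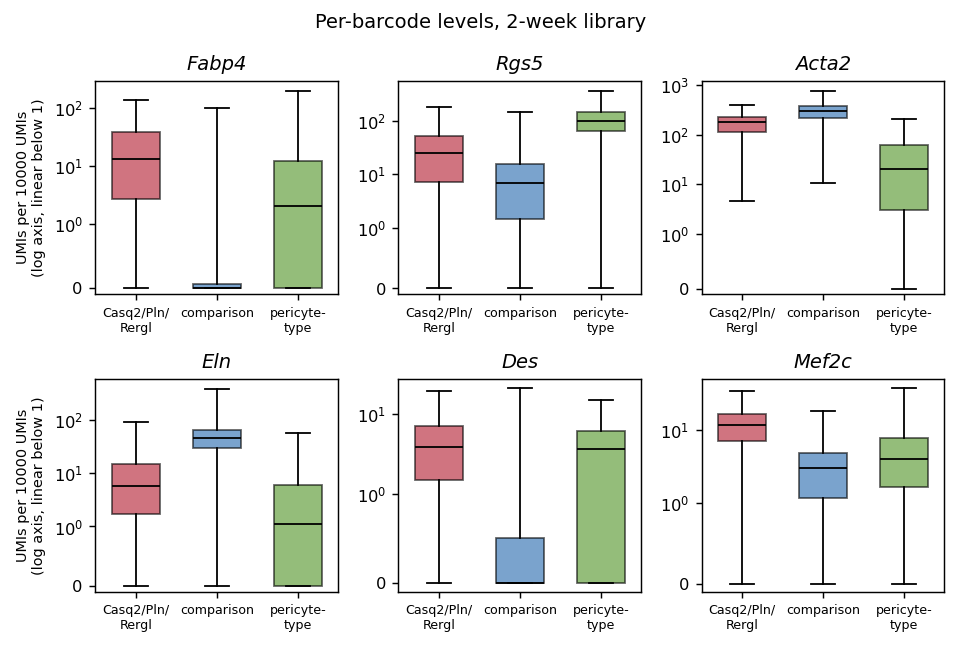
UMIs per 10000 UMIs in each barcode of the 2-week library, on an axis that is logarithmic above 1 and linear below it, for 119 Casq2/Pln/Rergl mural cells, 540 comparison smooth muscle barcodes and 130 pericyte-type barcodes. Boxes span the quartiles with the median as a line, and whiskers reach the lowest and highest barcode. Fabp4, Des and Mef2c had higher medians in members than in comparison barcodes, and Acta2 and Eln had lower ones.

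Across all genes with at least 20 UMIs over members and comparison barcodes, leaving out the 10 genes of both gates, 287 of 10100 (2.84%) were at least 2-fold higher in members and 252 (2.5%) at least 2-fold lower, on the log2 scale of CPM + 10, with a median log2 ratio of 0.09. Both sets came from 1 library, so there was no replicate and no test, and these counts describe the 2 sets of barcodes only. The counts for gene lists below stand beside these shares, to which a single gene past 2-fold in a list is close. The 15 highest ratios after the naming rule were those of Fabp4, Bcas3, Asap2, Kitl, Cd93, Cxcl12, Phlda1, Fabp5, Cog7, Sept4, Ano1, Frmd4b, Asb2, Des and Tbx2. Kitl, the stem cell factor that binds the receptor Kit, had 508 CPM in members and 81.0 CPM in comparison barcodes (ratio 6.27, interval 5.44 to 7.22). Cxcl12, a chemokine of stromal and perivascular cells, had 273 CPM in members and 44.3 CPM in comparison barcodes (ratio 6.16, interval 5.08 to 7.48). Both were also high in pericyte-type barcodes, at 336 CPM for Kitl and 532 CPM for Cxcl12.

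The 15 lowest ratios were those of Col8a1, Ccn3, Igfbp2, Msx2, Hs3st1, Ccn5, Col13a1, Col12a1, Ogn, Dkk3, Ndrg1, Pdlim4, Ptgis, Pcdh7 and Fhl1. Col8a1, a short-chain collagen of vessel walls, had 5.78 CPM in members and 461 CPM in comparison barcodes, which was 79.7 times as much (interval 34.1 to 246). Ccn3, a matricellular protein, had 5.78 CPM in members and 450 CPM in comparison barcodes. Igfbp2, which binds insulin-like growth factors, was at 0 in members and at 255 CPM in comparison barcodes, at least 73.5-fold lower in members when 3 counts over the members stand in for 0, with an exact 95% lower bound of 59.7-fold. Col13a1 and Pdlim4 were at 0 in members as well, at least 24.1-fold and 20.7-fold lower by the same 3 counts, with exact lower bounds of 19.5-fold and 16.8-fold. The size of these differences depended on the gate. When 2 gate genes sufficed for membership, the log2 ratio was -1.62 for Igfbp2 (as given above, -4.73), -2.41 for Col8a1 (-4.90) and -2.49 for Ccn3 (-4.87), and each of the 15 genes moved toward 0 by more than 1.5-fold while staying past 2-fold lower. Several of these genes were low in pericyte-type barcodes too, where Igfbp2 and Col13a1 had no UMI and Col8a1 and Ccn3 had 12.5 CPM each.

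Calcium handling was described by a list of 25 genes around the sarcoplasmic reticulum, of which 19 outside the gates had enough UMIs. In members 4 of the 19 were at least 2-fold higher and 0 lower than in comparison barcodes, with a median log2 ratio of 0.52. Those 4 were Atp2b1, the calcium pump of the plasma membrane, Hrc, a histidine-rich calcium-binding protein of the store, Mrvi1, which links cyclic GMP signalling to the inositol trisphosphate receptor, and Itpr1, that receptor. Atp2b1 had 425 CPM in members and 163 CPM in comparison barcodes (ratio 2.62, interval 2.30 to 2.97). Hrc had 110 CPM in members and 40.7 CPM in comparison barcodes (ratio 2.70, interval 2.08 to 3.48). Itpr1 had 134 CPM in members and 61.4 CPM in comparison barcodes, close to the 2-fold line. When 2 gate genes sufficed for membership, 2 of the 19 were past 2-fold higher, with log2 ratios of 0.76 for Itpr1 and 0.89 for Mrvi1, and with a prior of 50 CPM 1 was. Atp2a2, the pump that phospholamban restrains, differed less, at 515 CPM in members and 386 CPM in comparison barcodes (log2 ratio 0.41). Against pericyte-type barcodes 7 of 16 listed genes were at least 2-fold higher in members and 0 lower, beside 363 of 7510 genes (4.83%) higher and 485 (6.46%) lower over all genes, whose median log2 ratio was -0.11.

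Of 23 ion channel genes, 6 were at least 2-fold higher in members and 1 was lower, beside 2.84% higher and 2.5% lower over all genes, with a median log2 ratio of 0.41. Ano1, a calcium-activated chloride channel, had 94.8 CPM in members and 11.1 CPM in comparison barcodes (log2 ratio 2.31). Kcna5, a voltage-gated potassium channel, had 67.1 CPM in members and 7.34 CPM in comparison barcodes (log2 ratio 2.15). These channels did not group in 1 way with pericyte-type barcodes. Ano1 was at 162 CPM there, whereas Kcna5 was at 1.38 CPM. Cacna1d and Cacna1h, subunits of L-type and T-type calcium channels, had 31.2 and 62.4 CPM in members and 2.89 and 17.8 CPM in comparison barcodes. Kcnmb1, a subunit of the large-conductance potassium channel, was the 1 lower gene, at 30.1 CPM in members and 75.2 CPM in comparison barcodes. When 2 gate genes sufficed for membership, its log2 ratio was -0.94, and 5 of 23 channels were higher and 0 lower. With a prior of 50 CPM 2 of 23 were higher and 0 lower. Against comparison barcodes with no gate gene 5 of 21 were higher and 4 lower.

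Receptors for vasoactive signals differed in both directions, with 6 of 19 at least 2-fold higher, 4 lower and a median log2 ratio of 0.02. Olfr558 and Olfr78, odorant-receptor genes, had 242 and 99.4 CPM in members and 60.7 and 22.2 CPM in comparison barcodes. Calcrl, the receptor for calcitonin gene-related peptide and adrenomedullin, had 52.0 CPM in members and 9.34 CPM in comparison barcodes (log2 ratio 1.68). Agtr1b, Adra2c and Htr1b, receptors for angiotensin, adrenaline and serotonin, had no UMI in members, against 22.5, 18.5 and 16.5 CPM in comparison barcodes. Agtr1a, another angiotensin receptor gene, went the other way, at 16.2 CPM in members (14 UMIs) and 0.667 CPM in comparison barcodes (3 UMIs). It fell under the minimum of 20 UMIs and was not among the 19. Tbxa2r, the thromboxane receptor, had 26.6 CPM in members and 71.4 CPM in comparison barcodes. When 2 gate genes sufficed for membership, 6 of 20 receptors were higher and 1 lower, with log2 ratios of -0.67 for Agtr1b, -0.91 for Htr1b and -0.88 for Tbxa2r, and with a prior of 50 CPM 2 of 19 were higher and 0 lower.

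Downstream of these receptors, 2 of 17 regulators of G protein signalling were at least 2-fold higher in members and 1 lower (median log2 ratio 0.12), and 2 of 13 genes of the cyclic nucleotide pathway were higher and 1 lower (median 0.71). Rgs5, a regulator of G protein signalling abundant in pericytes, had 3334 CPM in members, against 1134 CPM in comparison barcodes and 10311 CPM in pericyte-type barcodes. Per barcode its lowest, median and highest levels were 0, 24.5 and 176 UMIs per 10000 in members and 0, 7.03 and 147 in comparison barcodes. Gucy1b1, a subunit of the nitric oxide receptor soluble guanylate cyclase, had 370 CPM in members and 125 CPM in comparison barcodes (ratio 2.95, interval 2.57 to 3.40). Its partner subunit Gucy1a1 had 754 CPM in members and 442 CPM in comparison barcodes (ratio 1.70, interval 1.56 to 1.86). Adcy5, an adenylate cyclase, was lower, at 45.1 CPM in members and 138 CPM in comparison barcodes.

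Contractile genes were present in members, and Acta2 and Tagln were lower there than in comparison barcodes. Of 35 listed genes, 3 were at least 2-fold higher, 5 lower, and the median log2 ratio was -0.41. Comparison barcodes were chosen by smooth muscle genes, among them Myh11, Cnn1 and Actg2, which members did not need, and the part of that choice in the lower contractile level was not tested. In the 35 members that passed the comparison gate as well, Acta2 was at 20965 CPM and Tagln at 16242 CPM, against 16735 and 10612 CPM in the 84 members that did not. Acta2 had 18120 CPM in members and 31218 CPM in comparison barcodes (ratio 0.580, interval 0.571 to 0.590). Its lowest, median and highest levels per barcode were 4.64, 179 and 402 UMIs per 10000 in members and 10.7, 301 and 774 in comparison barcodes. The 2 ranges overlapped widely, and the members' median lay below the lower quartile of comparison barcodes, 222. Tagln had 12454 CPM in members and 27246 CPM in comparison barcodes (log2 ratio -1.13). Smtn (smoothelin), Ppp1r14a, an inhibitor of myosin phosphatase, Nexn and Csrp1 were the other 4 genes past 2-fold lower. When 2 gate genes sufficed for membership, 0 of the 35 genes were past 2-fold lower, Tagln standing at a log2 ratio of -0.86. Des, which encodes the intermediate filament desmin, went the other way, at 471 CPM in members and 92.1 CPM in comparison barcodes (ratio 5.11, interval 4.45 to 5.87). Csrp2 and Itga7, a laminin-binding integrin, were also higher, with log2 ratios of 1.04 and 1.20. Against pericyte-type barcodes, in contrast, 22 of 35 listed genes were at least 2-fold higher in members and 2 lower, beside 4.83% higher and 6.46% lower over all genes. Pericyte-type barcodes had to fail the gate with Myh11, Cnn1 and Actg2, so that count is a description of the sets.

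A minority of vessel wall matrix genes, elastin among them, passed 2-fold lower in members. Of 24 genes of the elastic lamina and wall matrix, 0 were at least 2-fold higher and 5 were lower (median log2 ratio -0.46), and of 19 basement membrane genes 0 were higher and 2 lower (median -0.48). Eln, the elastin gene, had 1080 CPM in members and 4752 CPM in comparison barcodes, 4.40 times as much (interval 4.12 to 4.70), and 500 CPM in pericyte-type barcodes. Its lowest, median and highest levels per barcode were 0, 5.67 and 89.3 UMIs per 10000 in members and 0, 45.1 and 383 in comparison barcodes. In 23 of 119 members no Eln UMI was found, against 5 of 540 comparison barcodes. Mfap5, Bgn and Ltbp1, genes of microfibrils and wall matrix, and Col8a1 were the other 4 lower genes, and Col15a1 and Col18a1 were the basement membrane genes. Eln, Col8a1 and Col15a1 stayed past 2-fold when 2 gate genes sufficed for membership, with log2 ratios of -1.50, -2.41 and -1.28, whereas Mfap5 (-0.80), Bgn (-0.70), Ltbp1 (-0.82) and Col18a1 (-0.87) did not. When 4 gate genes were required, Mfap5 stood at a log2 ratio of -0.35 and the median of the elastic lamina list at -0.12, with 2 genes higher and 5 lower.

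**Figure D3:**
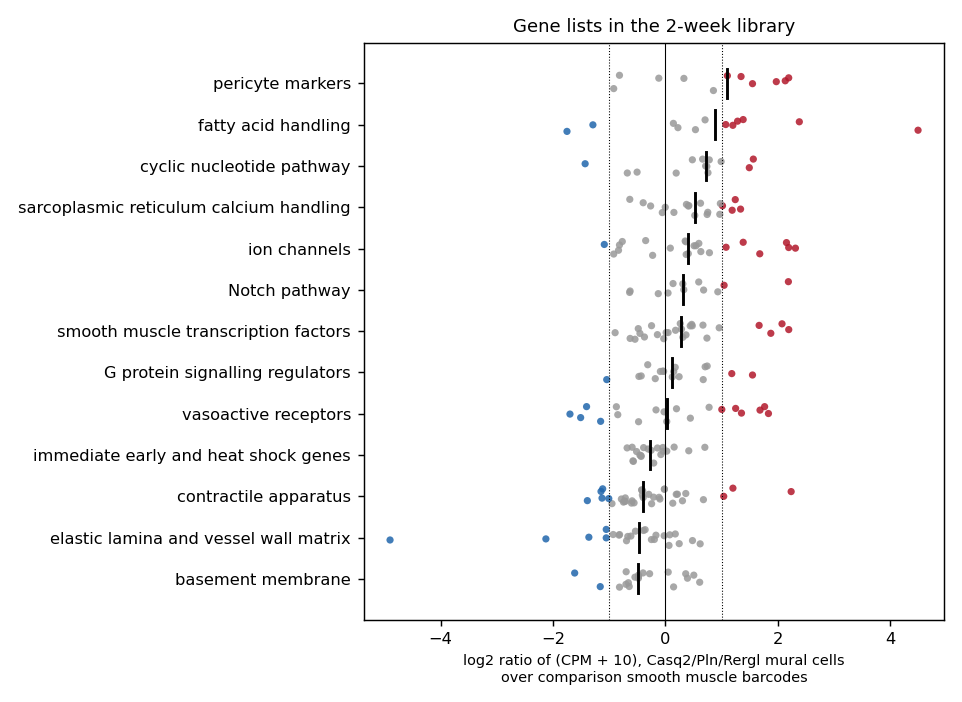
Log2 ratio of CPM + 10 in Casq2/Pln/Rergl mural cells over comparison smooth muscle barcodes of the 2-week library for each gene of 13 lists with at least 20 UMIs, leaving out the gate genes. Points are genes, black bars are list medians, dotted lines mark 2-fold, and red and blue points are genes past it upward and downward. Pericyte markers and fatty acid genes had the highest medians, 1.10 and 0.89, and basement membrane genes the lowest, -0.48.

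Transcription factors of smooth muscle were at least 2-fold higher in 4 of 26 cases and lower in 0 (median log2 ratio 0.27). Mef2c had 1206 CPM in members and 322 CPM in comparison barcodes (ratio 3.75, interval 3.46 to 4.06). Its lowest, median and highest levels per barcode were 0, 11.9 and 34.3 UMIs per 10000 in members and 0, 3.06 and 18.2 in comparison barcodes. Only 2 of 119 members had no Mef2c UMI, against 93 of 540 comparison barcodes. Hopx, a homeodomain-only protein, had 839 CPM in members and 192 CPM in comparison barcodes (ratio 4.37, interval 3.96 to 4.83). Tbx2 and Tbx3, T-box repressors, had 220 and 64.7 CPM in members and 40.3 and 13.6 CPM in comparison barcodes. Myocd, the smooth muscle co-activator of serum response factor, differed little, at 70.5 CPM in members and 79.0 CPM in comparison barcodes (ratio 0.893, interval 0.669 to 1.18). In the Notch pathway, which maintains mural cells, 2 of 12 genes were at least 2-fold higher and 0 lower (median 0.32). These were the target genes Nrarp (268 CPM in members, 51.2 CPM in comparison barcodes) and Hes1 (1177 CPM in members, 566 CPM in comparison barcodes), while the receptor Notch3 had a ratio of 1.62 (interval 1.45 to 1.81). Hes1 lay close to the 2-fold line (log2 ratio 1.04). Its log2 ratio was 0.85 when 2 gate genes sufficed for membership and 0.99 with a prior of 50 CPM. In both settings 1 of 12 Notch pathway genes was higher.

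Genes of fatty acid handling, Fabp4 included, were at least 2-fold higher in 6 of 12 cases and lower in 2 (median log2 ratio 0.89). When 2 gate genes sufficed for membership, 6 of 12 were higher and 1 lower (median 0.92). After thinning to 3000 UMIs 4 of 10 were higher and 1 lower (median 0.42). With a prior of 50 CPM 2 of 12 were higher and 0 lower (median 0.38). Fabp5, a related carrier, had 503 CPM in members and 88.5 CPM in comparison barcodes (ratio 5.68, interval 4.95 to 6.52). Lpl, the lipase that frees fatty acids from lipoproteins, had 176 CPM in members and 71.0 CPM in comparison barcodes, and Angptl4, an inhibitor of that lipase, had 72.8 CPM in members and 21.8 CPM in comparison barcodes. Cd36, a fatty acid transporter, was low, at 20.8 CPM in members and 2.67 CPM in comparison barcodes, and 33.3% of its UMIs in members came from 1 barcode. Plin4 and Apoe were lower in members. Against pericyte-type barcodes 1 of 11 listed genes (Fabp3) was at least 2-fold higher in members and 2 were lower, beside 4.83% higher and 6.46% lower over all genes.

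Members also carried genes known as pericyte markers. Of 12 pericyte markers, 6 of 11 with enough UMIs were at least 2-fold higher in members than in comparison barcodes and 0 lower (median log2 ratio 1.10). With 4 gate genes required for membership, 4 of the 11 were higher, 2 lower and the median was -0.11. Ndufa4l2 and Cox4i2, subunits or homologues of the respiratory chain that mark pericytes, had 1374 and 214 CPM in members, 343 and 41.2 CPM in comparison barcodes and 1887 and 454 CPM in pericyte-type barcodes. The potassium channel pair that defines many pericytes was nearly absent, however. Kcnj8 had 11.6 CPM in members, 28.0 CPM in comparison barcodes and 713 CPM in pericyte-type barcodes, and Abcc9 had 23.1 CPM in members, 52.7 CPM in comparison barcodes and 593 CPM in pericyte-type barcodes. All 12 markers, Ndufa4l2, Cox4i2, Kcnj8, Abcc9 and Rgs5 among them, chose the pericyte-type set, so their level there is a description of that set. Of the members, 17 also reached the pericyte-type count of markers.

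Genes outside those markers also differed in summed level between members and pericyte-type barcodes. Pericyte-type barcodes had to fail both gates, and the part of that choice in these levels was not tested. Sncg (gamma-synuclein) had 397 CPM in members and 11.1 CPM in pericyte-type barcodes, Fbxl22 had 498 CPM in members and 20.8 CPM in pericyte-type barcodes, and Sorbs2, an adaptor of the actin cytoskeleton, had 568 CPM in members and 26.3 CPM in pericyte-type barcodes. In comparison barcodes Sncg was at 202 CPM, just inside 2-fold of its level in members (log2 ratio 0.94), Fbxl22 was at 422 CPM (log2 ratio 0.23), and Sorbs2 was at 988 CPM, above its level in members (log2 ratio -0.79). On the other side, Ccl11 (eotaxin) was at 0 in members and 327 CPM in pericyte-type barcodes, and Mgp, the matrix Gla protein, had 301 CPM in members and 4109 CPM in pericyte-type barcodes. Ccl11 was detected in 44.6% of pericyte-type barcodes, so the other barcodes of that set were at 0 like the members.

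**Figure D4:**
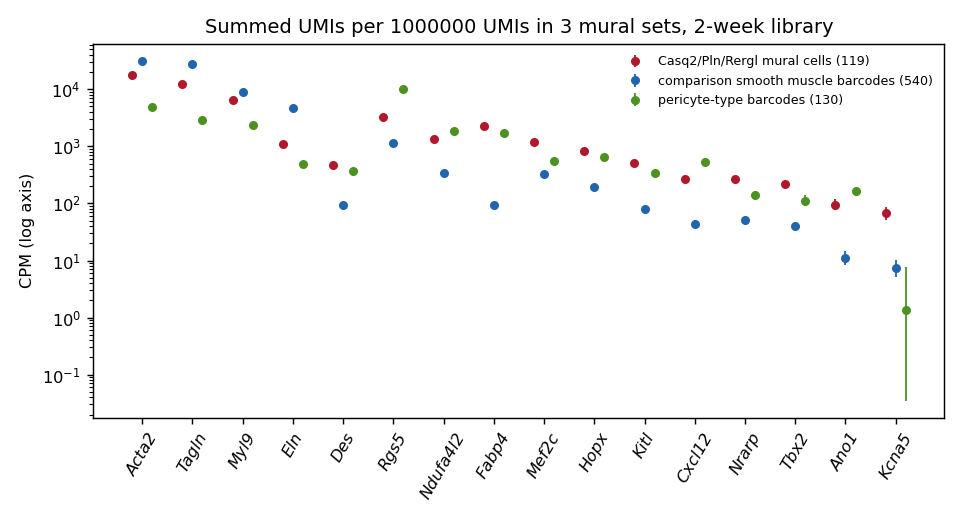
Summed UMIs per 1000000 UMIs of 16 genes in 3 mural sets of the 2-week library on a log axis, with exact 95% Poisson intervals that cover counting error only. Fabp4, Mef2c, Hopx, Kitl, Nrarp, Tbx2 and Kcna5 were highest in Casq2/Pln/Rergl mural cells, whereas Acta2, Tagln, Eln, Rgs5 and Ndufa4l2 lay between the other sets, which were chosen by smooth muscle genes and by pericyte markers that include Rgs5 and Ndufa4l2.

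The members also differed among themselves. Of 119, 35 passed the comparison gate as well and 84 did not. Members passing both gates had less Rgs5 (1346 CPM, against 4302 CPM in those passing the first gate alone; ratio 0.313, interval 0.280 to 0.349) and less Fabp4 (1551 CPM, against 2668 CPM in those passing the first gate alone; ratio 0.581, interval 0.522 to 0.647). They had more Eln (1809 CPM, against 725 CPM in those passing the first gate alone; ratio 2.49, interval 2.19 to 2.84). Over all 1179 genes compared, 7 (0.594%) were at least 2-fold higher in members passing both gates and 15 (1.27%) lower. The 5 with the lowest ratios were Igfbp6, Dcn, Col3a1, Serpinf1 and Col1a1, and 142 of the 150 Igfbp6 UMIs lay in the 7 members with several tenocyte or fibroblast markers described next. Members with 4 or 5 gate genes had a median depth of 7901 UMIs, against 6179 UMIs in those with 3. Fabp4 stood at 2293 CPM in members with 4 or 5 gate genes and 2310 CPM in those with 3. Rgs5 stood at 2323 CPM in members with 4 or 5 gate genes and 4177 CPM in those with 3.

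Transcripts of other cell types were looked at in the same barcodes. Endothelial markers were nearly absent, with 8 UMIs of 12 genes over all members (9.25 CPM in sum, against 14.9 CPM in comparison barcodes), and Cdh5, Kdr, Emcn, Tie1, Cldn5, Gpihbp1 and Aqp7 were at 0. The summed level of immune markers was 1.16 CPM in members, with Ptprc at 0, and that of Schwann cell markers 3.47 CPM, with Sox10 at 0. Chondrocyte markers summed to 50.9 CPM in members and 37.6 CPM in comparison barcodes, with 6 of 8 detected in each, and Acan, the aggrecan gene, was higher, at 35.8 CPM and in 19 of 119 members, against 7.12 CPM and 18 of 540 comparison barcodes. Erythroid markers summed to 19.7 CPM in members (17 UMIs) and 6.67 CPM in comparison barcodes, with 4 of 7 detected in members, and 1 member had at least 4 of them. Skeletal muscle fibre markers summed to 87.9 CPM in members and 125 CPM in comparison barcodes, and myogenic markers to 1.16 CPM in members and 23.4 CPM in comparison barcodes. The part of these transcripts in the results was not tested. Tenocyte markers summed to 1842 CPM in members and 2625 CPM in comparison barcodes, with all 8 of 8 detected, and fibroblast markers to 942 CPM in members and 2335 CPM in comparison barcodes. A few members carried most of this: 7 members had at least 4 of 8 tenocyte or at least 4 of 8 fibroblast markers, against 63 of 540 comparison barcodes (5.88% and 11.7%), and the 7 members held 924 of 1164 Col1a1 UMIs and 259 of 293 Dcn UMIs. Without all these barcodes in both sets, 0 of 20 genes of the elastic lamina list were at least 2-fold higher and 5 lower, with Eln at a log2 ratio of -2.24. A single member held 174 of 256 UMIs of Tnmd, the tenomodulin gene of tenocytes. The 8 genes at least 2-fold higher (0.679% of 1179) in members with 4 or 5 gate genes than in those with 3 were Igfbp6, Dcn, Serpinf1, Col3a1, Col1a2, Col1a1, Tnmd and Pcolce. Mgp and Hist1h2bc were the 2 lower genes (0.17%). Without the 7 members, 0 of 1069 genes were at least 2-fold higher and 3 were lower. Of the 119 members, 6 had a high doublet score, and they were kept.

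The 20-week libraries held little for these cells. The 1 member, in replicate 1, had 2748 UMIs, with 2 UMIs of Nrgn, 3 of Nrip2, 2 of Pln, 7 of Fabp4, 4 of Rgs5 and 111 of Acta2, and 0 of Casq2 and Rergl. The 15 comparison barcodes of that library had 4 Fabp4 UMIs in all (92.4 CPM), in 3 barcodes. These are too few to set against the 92.8 CPM of the comparison barcodes at 2 weeks. A further 7 barcodes of 20-week replicate 1 and 4 of 20-week replicate 2 had 2 of the gate genes. All 7 of those in replicate 1 had Pln, with 20 UMIs together, and 0 had Casq2.

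To set the libraries side by side with more barcodes, all those with at least 5 of 10 pan-mural markers were summed, a set chosen after the data were seen. They were 50 barcodes in 20-week replicate 1, 36 in 20-week replicate 2 and 976 in the 2-week library, and their median depths were 1956.5 UMIs in 20-week replicate 1, 2030.5 in 20-week replicate 2 and 7254 in the 2-week library. Casq2 was at 9.52 CPM in 20-week replicate 1 (1 UMI, interval 0.241 to 53.1), 663 CPM in 20-week replicate 2 (49 UMIs, interval 491 to 877) and 33.5 CPM in the 2-week library (interval 29.4 to 37.9). Pln had the opposite order between the 20-week libraries, at 210 CPM in replicate 1 (interval 131 to 317) and 27.1 CPM in replicate 2 (interval 3.28 to 97.8), with 38.6 CPM in the 2-week library. Rergl had no UMI in either 20-week library, where 3 counts would be 28.6 CPM in replicate 1 and 40.6 CPM in replicate 2, and 23.6 CPM in the 2-week library, so a lower level was not detectable within either 20-week library alone. Over both 20-week libraries together, 3 counts would be 16.8 CPM, below the 2-week level. The exact 95% upper bound, 20.6 CPM, lay just inside the 2-week interval (20.2 to 27.4), so the intervals overlapped and a lower level was not shown. Casq2 and Pln therefore did not go together in the 20-week mural barcodes. In 20-week replicate 2, 13 of the 20 barcodes with Casq2 also had Kcnj8 or Abcc9, and 42 of its 54 Casq2 UMIs lay in 30 pericyte-type barcodes (743 CPM). In the 2-week library Casq2 stood at 59.5 CPM in pericyte-type barcodes. These 2 sets were not alike, since pericyte-type barcodes had to fail the gate that uses Casq2. At 2 weeks 156 of 258 Casq2 UMIs lay in members, whereas 20-week replicate 2 had 0 members. The makeup of the mural barcodes differed between the libraries too, with Acta2 at 20266 CPM in 20-week replicate 1, 2193 CPM in 20-week replicate 2 and 22282 CPM in the 2-week library, and Kcnj8 at 200 CPM in 20-week replicate 1, 2058 CPM in 20-week replicate 2 and 90.9 CPM in the 2-week library. The part of that makeup in the differences above was not tested.

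**Figure D5:**
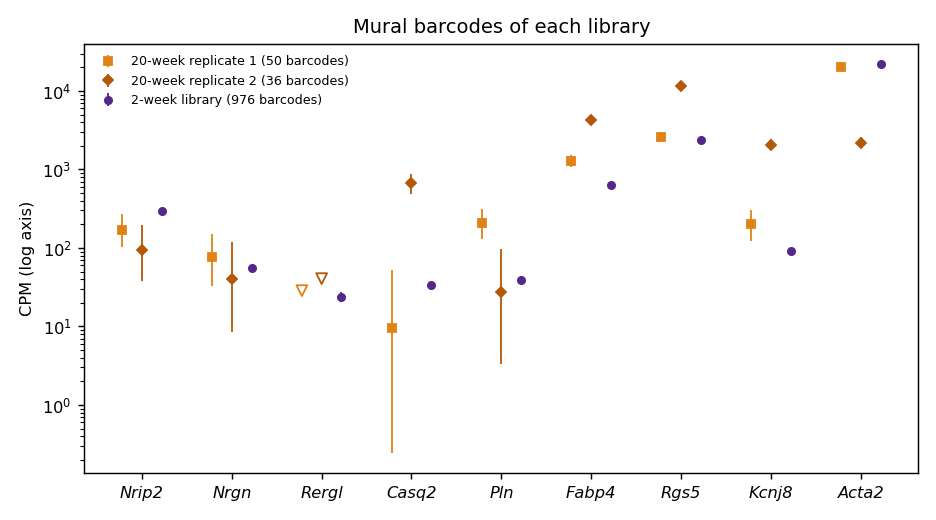
CPM on a log axis of the 5 gate genes, Fabp4, Rgs5, Kcnj8 and Acta2 in barcodes with at least 5 of 10 pan-mural markers of 20-week replicate 1, 20-week replicate 2 and the 2-week library, with exact 95% Poisson intervals for counting error. Open triangles mark the CPM that 3 counts would give where no UMI was found. Casq2 was highest in 20-week replicate 2 and Pln in 20-week replicate 1.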

How the data were processed

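Droplet-based single-cell RNA-seq of sorted patellar tendon cells was used. The deposited values were UMI counts per gene and barcode, not normalized and with libraries kept apart, and came from the authors' Cell Ranger 6.1.2 run on mm10, per the submitters' processing notes. The annotation release is not given in the sources used here. Of 32285 Ensembl identifiers, 32158 were found in the GENCODE annotation used for positions.

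The members, the gene lists and the comparisons were chosen with earlier results of these data known, and the pericyte-type, pan-mural and chondrocyte-type sets and the split by the comparison gate were added after the data were seen. UMIs were summed over each set and library and scaled to CPM. Ratios are log2 of CPM + 10 among genes with at least 20 UMIs, and counting intervals are exact at 95% (binomial or Poisson). The planned test across libraries needed at least 10 members in at least 2 libraries and was not run, so no p-value is given. Named genes outside the lists were the 15 highest and 15 lowest ratios among genes with at least 100 UMIs and 50 CPM in the higher set, leaving out mitochondrial, ribosomal, haemoglobin, sex-linked and unnamed genes. Within a list, up to 5 genes with the largest change were named, plus those whose level a sentence needed. Chondrocyte-type barcodes had at least 3 of 8 chondrocyte markers. Doublets were scored with the method that scrublet defines, rewritten with exact neighbours, at 0.800% per 1000 barcodes, which called 3, 8 and 197 barcodes of 20-week replicate 1, 20-week replicate 2 and the 2-week library. They were kept and left out as an alternative. Members summed to 864912 UMIs and comparison barcodes to 4495409 UMIs in the 2-week library. The calculation of ratios was tested on simulated data. Python 3.11.15, numpy 2.4.6, scipy 1.17.1, pandas 2.3.3, scikit-learn 1.9.0 and matplotlib 3.10.9 were used.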

Additional observations from a re-analysis of the deposited data

Results flagged for a closer look

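A transgene sequence, tdTomato, was counted although the mice were labelled wild type. In the 2-week library 27 UMIs lay in members (31.2 CPM, interval 20.6 to 45.4) and 75 in comparison barcodes (16.7 CPM, interval 13.1 to 20.9), above the 3 counts that a count of 0 allows. They were spread over 23 members, with at most 3 UMIs in 1 barcode. EGFP had 2 UMIs in members, both in 1 barcode, and the tdTomato-WPRE sequence had 0.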

How the results depend on the processing

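Under the alternatives for the fold counts, 95 genes were recomputed, and 0 of those past 2-fold changed direction. Of 82 genes past 2-fold, 60 stayed past it with a gate of 2 genes, 72 with a gate of 4, 82 with a prior of 1 CPM, 49 with a prior of 50 CPM, and 73 to 81 under the other alternatives. A gate of at least 2 of 5 genes gave 243 members over all libraries and a share of 4.65% in the 2-week library, with 225 genes at least 2-fold higher and 113 lower, and a gate of at least 4 gave 45 members and a share of 0.907%, with 308 genes higher and 312 lower. Thinning before the gate gave 61 members over all libraries at 3000 UMIs and 45 at 2000 UMIs, and shares in the 2-week library of 1.41% and 0.931%. Without the 2-week library 1 member was left, and without either 20-week replicate 119 to 120. A prior of 1 CPM gave 775 genes higher and 677 lower, and a prior of 50 CPM gave 61 and 58, because the prior damps low genes. Stricter barcode filters, leaving out barcodes with a high doublet score, leaving out barcodes with 4 or more tenocyte or fibroblast markers, thinning after the gate, no filter on low counts and comparison barcodes with no gate gene moved each count by less than 1.5 times. The number of genes tested moved too, so the shares did not follow the counts. Against 287 higher and 252 lower of 10100 genes, thinning after the gate gave 273 higher and 329 lower of 7394. Comparison barcodes with no gate gene gave 287 higher and 344 lower of 7623, and no filter on low counts 309 and 252 of 15644.

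No analysis paired by library was possible, because only 1 library reached the minimum of 10 members, and no test was run. For the same reason DESeq2, the fits without TMM or the library block and minima of 5 or 20 barcodes were not run, and no value of age within members exists. With 1 library holding 119 of 120 members, no value here has a replicate check, and genes at a few CPM rest on few UMIs.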

Other observations

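Genes of the cell cycle and of the early stress response did not pass 2-fold in members at the main settings. Of 12 cell cycle genes, 0 were at least 2-fold higher or lower than in comparison barcodes (median log2 ratio 0.33), beside 2.84% higher and 2.5% lower over all genes. With 4 gate genes required for membership, 3 of 12 were higher (median 0.67), and with a prior of 1 CPM 2 of 12 were. Leaving out barcodes with a high doublet score gave 1 of 11 higher, as did leaving out those with 4 or more tenocyte or fibroblast markers. Mki67 or Top2a, genes of dividing cells, was detected in 6 of 119 members (5.04%, exact binomial interval 1.87 to 10.7%), 31 of 540 comparison barcodes (5.74%, interval 3.93 to 8.05%) and 7 of 130 pericyte-type barcodes (5.38%, interval 2.19 to 10.8%). Of 20 immediate early and heat shock genes, which respond to tissue digestion, 0 passed 2-fold in either direction (median -0.28).

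Oxidant and antioxidant genes did not stand apart from the share over all genes (2.84% higher, 2.5% lower). Of 18, 0 were at least 2-fold higher in members and 1 was lower, Mt1, a metallothionein that binds zinc and copper, at 629 CPM in members and 1371 CPM in comparison barcodes.

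Barcodes with 2 gate genes lay between those with 3 and those with 1 for several genes the gate did not use. In the 2-week library, Fabp4 stood at 2310 CPM in barcodes with 3 gate genes, 1539 CPM in those with 2 and 255 CPM in those with 1. Eln stood at 1174 CPM in barcodes with 3 gate genes, 2407 CPM in those with 2 and 3785 CPM in those with 1. Myh11 did not follow this order, at 2450 CPM with 3 gate genes, 2270 CPM with 2 and 2370 CPM with 1. Rgs5 did follow it, at 4177 CPM with 3 gate genes, 3382 CPM with 2 and 1478 CPM with 1. Its level was lower again in barcodes with more gate genes, at 2516 CPM with 4 and 1538 CPM with 5. The sets also differed in makeup: 53 of 112 barcodes with 2 gate genes and 351 of 496 with 1 had at least 3 comparison genes.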
